A study of Mus musculus with 45 samples.

Results

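The ERVL families other than MERVL were taken as every repeat family that the deposited repeat tables assign to family ERVL and class LTR, with MERVL-int and MT2_Mm left out. This gave 111 families out of 1146 repeat families in the tables. The choice used names only and no measured value. By name, 15 were internal parts, 5 were MT2 LTRs, 3 were RMER LTRs, 10 were MLT2 LTRs, 17 were MER LTRs, 57 carried LTR numbers and 4 had other names. RNA-seq had been performed on 45 libraries of mouse embryonic stem cells (mESCs) in 15 groups of 3, which form 4 experiments. In the first 3 experiments all cells, DMSO controls included, were EHMT2-dTAG-mcherry cells on a BL6/129 background, in which both copies of Ehmt2 carry a degron so that the degrader dTAG-13 removes the EHMT2 protein. The time course compared 24 h or 7 days of DMSO or dTAG, and the washout experiment compared 15 days of DMSO, 15 days of dTAG, and 7 days of dTAG followed by 8 days in DMSO (Recovery), each in the clones E2-17, E2-20 and E2-K71. The sorted experiment used EHMT2-dTAG-mcherry-mervl-gfp cells after 72 h of DMSO or dTAG, divided into GFP-positive cells, called 2-cell-like cells (2CLCs), and GFP-negative cells, called mESCs. The GFP reporter is driven by MERVL sequence, so this sort selects on the element that was left out here. The Dppa4 experiment treated 3 WTJ1 wild-type clones and 3 clones made Dppa4 KO by CRISPR/Cas9 for 48 h with DMSO or with UNC0638, which inhibits the catalytic activity of EHMT2 and EHMT1.

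ERVL elements are endogenous retroviruses, that is, remnants of germline retroviral insertions. A complete copy has an internal part (the suffix "-int") between a pair of long terminal repeats (LTRs), and many copies survive as a lone LTR, which can act as a promoter. MERVL, whose internal part is MERVL-int and whose LTR is MT2_Mm, is a young mouse lineage that is transcribed in 2-cell embryos and in 2CLCs. Most of the families described here are older. The MT2A, MT2B, MT2B1, MT2B2 and MT2C_Mm LTRs carry the name of the MERVL LTR, MERVL_2A-int is a MERVL-named internal part, ERVL-B4-int and ERVL-E-int are further ERVL internal parts, and the MLT2 and LTR16 groups are found widely among mammals. EHMT2 (G9a) and its partner EHMT1 (GLP) place the repressive mark H3K9me2, and DPPA4 is a DNA-binding activator of 2-cell genes in mESCs.

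For the first 3 experiments the deposited values were the authors' means of normalized counts over the libraries of a group. Replicate values were therefore not used here for these, and the comparisons below are ratios of group means without a standard deviation or a test. A family was carried forward where its mean over the columns of an experiment was at least 10, and a log2 difference of at least 1 on the scale log2(value + 1) in either direction was counted. The filter kept 50 of the 111 families in the time course, 34 in the washout, 89 in the sorted cells and 49 in the Dppa4 experiment. In the sorted cells 20 of the 89 had at least 1 group under 10, so they passed only through the groups in which they were high. Across all 4 experiments 33 families passed everywhere, 22 passed nowhere, and HERVL32-int and MER76-int were listed at 0 in all 15 groups. Each experiment was normalized separately, so levels were compared within an experiment only. Reads with several genomic matches had been placed at 1 position at random, so reads of closely related families could not be separated fully.

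The marker genes followed the labels. The summed level, in normalized counts, of 12 genes of 2CLCs, such as Zscan4c and Zscan4d, was 638 in DMSO mESCs and 10334 in dTAG mESCs, against 115642 in DMSO 2CLCs and 253096 in dTAG 2CLCs. The 8 pluripotency genes summed to 50717 and 43355 in the GFP-negative groups and to 28649 and 28924 in the 2CLCs. In the mixed cultures the 12 genes summed to 159 and 256 in the DMSO groups at 24 h and 7 days and to 2234 and 6423 in the dTAG groups. In such unsorted cultures more 2CLCs and more RNA per cell cannot be told apart. Dppa4 was at 0 in all 6 Dppa4 KO libraries and between 700 and 920 in the 6 wild-type libraries. The degron acts on protein, and Ehmt2 RNA was 616 and 622 in the DMSO groups and 609 and 582 in the dTAG groups of the time course, so this transcript was no check of the depletion. The 9 genes of feeder fibroblasts summed to 366 and 1005 in DMSO mESCs and 2CLCs and to 757 and 1734 in dTAG mESCs and 2CLCs. They summed to 1743 and 2217 in DMSO and dTAG at 24 h, 1480 and 2326 at 7 days, and 2762, 3676 and 1095 in the 15-day DMSO, 15-day dTAG and Recovery groups. They thus moved with several of the comparisons, and their part in the results was not tested.

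Most of the ERVL signal outside MERVL came from a few LTRs. In the 24 h DMSO group the 111 families summed to 8868 normalized counts, 1.26% of all repeat counts, and 5 families gave 49.8% of that sum. MT2B (1319) and RMER15 (1138) were the most abundant, followed by RMER10A (762), MERVL_2A-int (600.1) and MT2A (595). The MT2 LTRs together gave 37.4% of the sum, the RMER LTRs 26.5% and the internal parts 12.6%. Counts were not divided by length here, so these are amounts of RNA signal and not numbers of transcripts. MERVL-int and MT2_Mm together stood at 6096 in the same group, 0.687 times the sum of the 111 families. After 7 days of dTAG they stood at 9.24 times that sum, and in dTAG 2CLCs at 41.1 times.

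**Figure D1:**
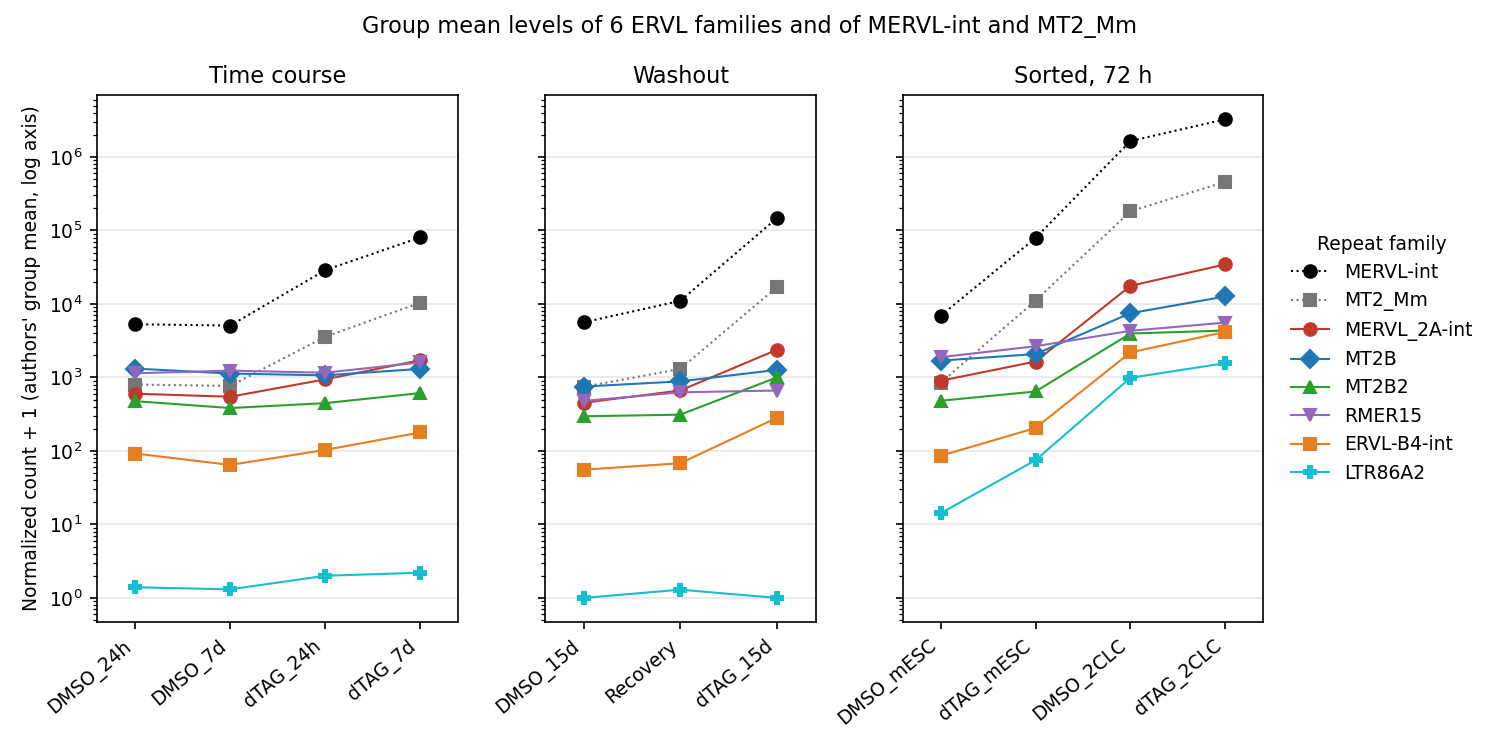
Normalized count + 1 (log axis, authors' group means without replicate values) of 6 ERVL families and, dotted, of MERVL-int and MT2_Mm in the 11 groups of the time course, washout and sorted experiments, with lines only joining the points of a family. MERVL_2A-int runs from 545 to 1713 in the time course, while MT2B stays between 1066 and 1319, and LTR86A2 is near 0 outside the sorted cells and at 987 and 1565 in 2CLCs.

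After 24 h of dTAG the ERVL families other than MERVL were not higher as a group. No member of the 50 was higher by at least 1 on the log2 scale, where 0.829% of all 724 families tested were, and LTR40c was lower (20.4 in DMSO, 9.27 in dTAG, log2 difference −1.06), where 1.1% of all families were lower to that extent. The median over the 50 was −0.33, beside −0.25 over all families tested. Among members with a mean of at least 100, the MERVL-named internal part MERVL_2A-int had the highest difference. Its group mean was 600.1 in DMSO and 940.5 in dTAG, a log2 difference of 0.65 that ranked 18 of 724 families. ERVL-B4-int stood at 91.3 and 102 and all 5 MT2 LTRs were lower with dTAG, with log2 differences between −0.38 (MT2C_Mm) and −0.03 (MT2A), although MT2A, MT2B1 and MT2B2 were at 0.24, 0.01 and 0.18 once each group was scaled to the median repeat family. MERVL-int, in the same libraries, was at 5296 and 28792 (log2 difference 2.44). The part of the 2CLC genes and MERVL-int, which were higher with dTAG at each time, in the ERVL differences was not tested.

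After 7 days of dTAG, 2 internal parts had the highest differences of the 50 members. MERVL_2A-int was at 545 in DMSO and 1713 in dTAG, 3.14-fold higher (log2 difference 1.65, rank 11 of 724). ERVL-B4-int was at 63.6 and 177, 2.79-fold higher (log2 difference 1.47, rank 15). These were the only 2 of the 50 members above 1, where 3.04% of all families tested were (4.97% in either direction). The other internal parts lay among the LTRs, with HERVL74-int at 0.74, MER68-int at 0.57, ERVL-int at 0.28, RMER15-int at 0.04 and ERVL-E-int at −0.47. All 5 MT2 LTRs were now higher, by 0.07 for MT2B1 and 0.21 for MT2B up to 0.68 for MT2B2, which went from 382 to 612. RMER15, about as abundant as MT2B, was at 1237 and 1598 (0.37), whereas RMER10A stood at 668 and 613 (−0.12). The median over the 50 members was 0.03, beside −0.12 over all families tested.

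MLT2C2, an LTR of the MLT2 group, went the other way at 7 days, from 133 in DMSO to 47.9 in dTAG (log2 difference −1.46), where 1.93% of all families were lower by at least 1. Its level also differed between the DMSO groups, at 227 after 24 h and 133 after 7 days (−0.76). The comparison of these 2 DMSO groups gives a measure of how far group means differ without dTAG. Between them no member reached 1 in either direction, where 0.552% of all families did, and the median absolute difference over the 50 members was 0.27, beside 0.36 for dTAG against DMSO at 24 h and 0.28 at 7 days. The largest was −0.99, for LTR33. Set against this, the differences of MERVL_2A-int, ERVL-B4-int and MLT2C2 at 7 days exceeded every difference between the DMSO groups, and those of the MT2 LTRs did not. The 7-day comparison and that between the DMSO groups share the 7-day DMSO group, so they are not independent of each other. The DMSO groups also differ in days of culture. From 24 h to 7 days the dTAG-minus-DMSO difference grew by 1.31 for ERVL-B4-int, 1.16 for MER68-int (a low family, at 10.0 and 15.3 at 7 days) and 1.00 for MERVL_2A-int. These were 3 of 50 members, where 4.14% of all families grew by at least 1 (5.25% moved by that much in either direction). In DMSO, ERVL-B4-int, MER68-int and MERVL_2A-int were lower at 7 days than at 24 h (−0.52, −0.71 and −0.14). Part of each growth thus came from the DMSO levels.

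At 15 days of dTAG more of the ERVL families were higher, now with LTRs among them. Of 34 members tested, 8 were at least 1 above DMSO, where 9.84% of all 640 families tested were, and none was lower to that extent (0.312%). MERVL_2A-int and ERVL-B4-int again had the highest differences. MERVL_2A-int was at 451 in DMSO and 2382 in dTAG, 5.28-fold higher (log2 difference 2.40, rank 8 of 640). ERVL-B4-int was at 54.6 and 281, 5.16-fold higher (2.35, rank 10). ERVL-E-int was at 11.6 and 25.1 (1.05), while HERVL74-int (0.34) and RMER15-int (−0.06), the other internal parts tested, were under 1. Among the LTRs, MT2B2 was at 295 and 1001, 3.39-fold higher (1.76, rank 15), and MT2B1 was at 238 and 491 (1.04). MLT2F (13.6 and 36.6), MLT2B1 (18.2 and 44.4) and LTR16C (15.5 and 33.5) were low families with differences of 1.37, 1.24 and 1.06. RMER10A, RMER10B and RMER15 differed by 0.19, 0.15 and 0.47. The median over the members was 0.44, beside 0.27 over all families tested, and with every group scaled to the median repeat family, MERVL_2A-int, ERVL-B4-int, MT2B2 and MLT2F remained above 1, with differences of 2.07, 2.02, 1.43 and 1.06.

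With 8 days of washout after 7 days of dTAG, most of these families stood near the level of the cells that never received dTAG. MT2B2 was at 311 in Recovery and 295 in DMSO (log2 difference 0.07), MLT2B1 at 18.1 and 18.2 (−0.003) and ERVL-B4-int at 67.1 and 54.6 (0.29). MERVL_2A-int, at 663, was 1.47 times its DMSO level (0.55), while MERVL-int, at 11016, was 1.96 times its DMSO level of 5617. Of the 8 families above 1 at 15 days of dTAG, 7 were under 1 in Recovery and 5 of these were under 0.5. Over all families tested, 63 of 640 were at least 1 above DMSO at 15 days of dTAG and 6 of 640 in Recovery. The fall under 1 was thus general and is not read as particular to the members. Among the members only MLT2F (28.2, 1.01) and MLT2C1 (15.9 against 7.46, 1.00) were at least 1 above DMSO in Recovery, 2 of 34 where 0.938% of all families were. Both were at 0.76 after scaling to the median repeat family, and no member was called with that scaling, with a mean of at least 100 or with a pseudocount of 8. Against the cells kept in dTAG for 15 days, 4 members were lower by at least 1, where 4.38% of all families were (4.69% in either direction). These were ERVL-B4-int (−2.05), MERVL_2A-int (−1.84), MT2B2 (−1.69) and MLT2B1 (−1.25). The 3 comparisons of the washout share groups, so they are not independent of each other.

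**Figure D2:**
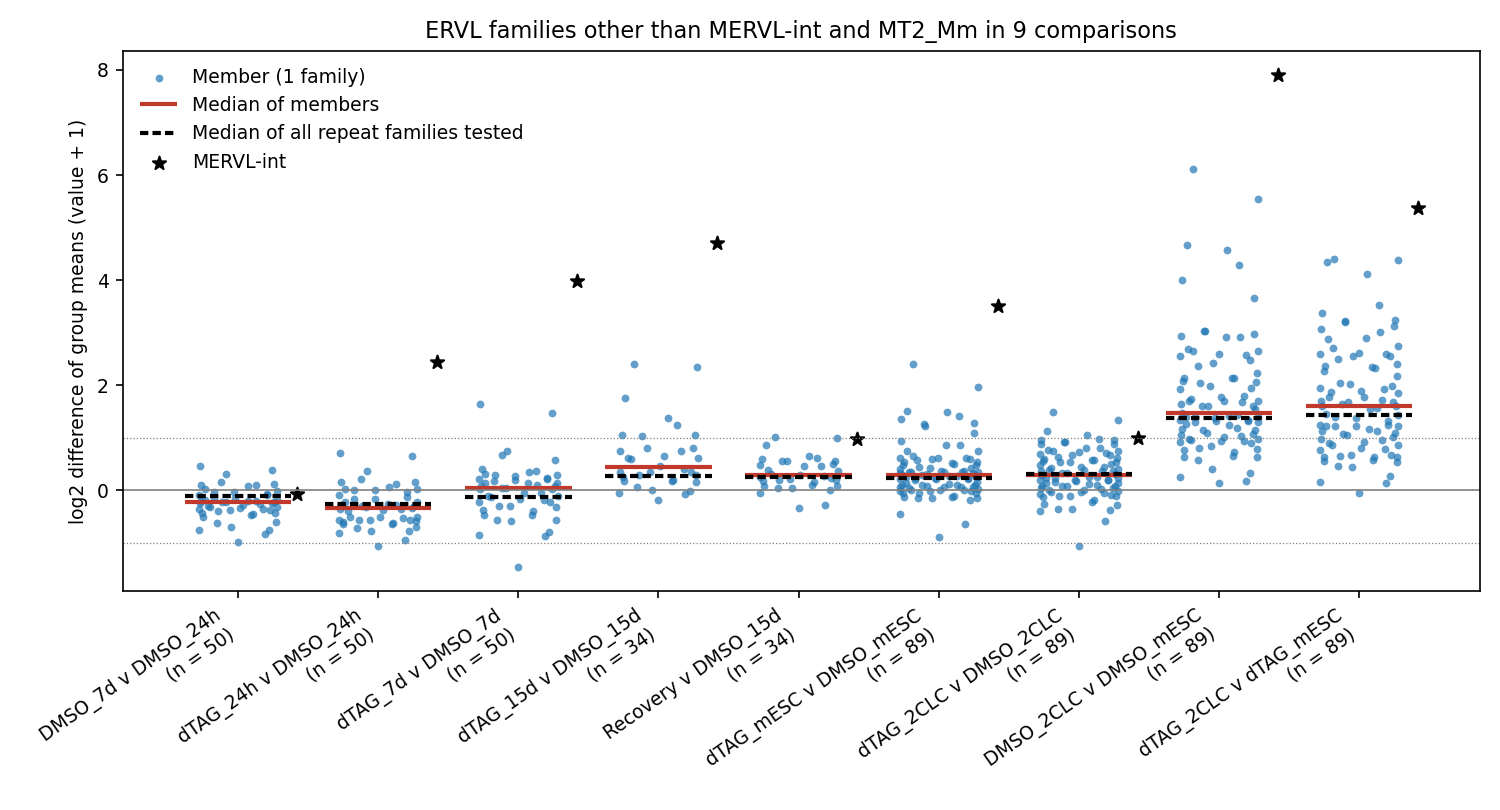
Log2 difference of group means (value + 1) for each ERVL family tested (points) in 9 comparisons, with the median of the members (red), the median of all repeat families tested (black dashes) and MERVL-int (star). The red and black lines lie close together in each comparison, and at 7 and 15 days of dTAG in unsorted cells a few points, led by MERVL_2A-int and ERVL-B4-int, lie above the dotted line at 1.

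The GFP-positive cells held more RNA of nearly every ERVL family, as of nearly every repeat family. In DMSO, all 89 members tested were higher in 2CLCs than in mESCs, 68 of them by at least 1, where 67.8% of all 911 families tested were. In dTAG, 65 of 89 were at least 1 higher, where 66.5% of all families were (67% in either direction). The medians over the members were 1.48 and 1.61, beside 1.38 and 1.44 over all families. Of the 89 members, 20 had a group under 10 and passed the filter only through higher groups. The counts above 1 are therefore not read against the background. These comparisons share no library with each other, and 59 members (66.3%) were at least 1 higher in both, beside 61.9% of all families. Because the typical repeat family shifted by this amount, differences are also given after scaling each group to the median repeat family. Under that scaling 20 of 87 members were at least 1 higher in 2CLCs in DMSO, where 17.8% of all families were, and 23 of 87 in dTAG, where 20.9% were. The scaling turned 33 members in DMSO and 36 in dTAG from higher to lower in 2CLCs. With it, 3 members were lower by at least 1 in each comparison, where 6.44% and 10.7% of all families were.

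Particular families differed far more than the typical repeat. MERVL_2A-int was at 900 in DMSO mESCs and 17646 in DMSO 2CLCs, 19.6-fold higher (log2 difference 4.29), and at 1644 and 34559 in the dTAG groups, 21.0-fold higher (4.39). ERVL-B4-int was at 84.9 and 2191 in DMSO (4.67) and at 204 and 4170 in dTAG (4.35). Relative to the median repeat family the differences were 2.96 and 3.02 for MERVL_2A-int and 3.35 and 2.98 for ERVL-B4-int. These internal parts changed the make-up of the ERVL signal, and all internal parts together gave 12.9% of the summed level of the 111 families in DMSO mESCs and 37.5% in DMSO 2CLCs, against 16.3% and 45.0% with dTAG. The RMER LTRs went from 25.6% to 12.7% and from 25.4% to 10.0%.

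In DMSO, LTR86A2 and LTR16D, which were scarce in mESCs, had the largest log2 differences of the 89 members. LTR86A2 was at 13.2 in DMSO mESCs, 987 in DMSO 2CLCs, 73.9 in dTAG mESCs and 1565 in dTAG 2CLCs (log2 differences 6.12 and 4.39), and ranked 5 and 10 of 911 families in the DMSO and dTAG comparisons. LTR16D stood at 4.74, 267, 21.5 and 391 in the same groups (5.55 and 4.12), LTR86A1 at 9.65, 251, 29.5 and 316 (4.57 and 3.38), and LTR16A1 at 12.5, 213, 35.1 and 331 (3.99 and 3.20). LTR16D and LTR86A1 were under 10 in DMSO mESCs and passed the filter only through groups in which they were higher. Their differences are therefore not independent of the filter. In the unsorted cultures LTR86A2 did not follow MERVL-int. It was at 1.20 after 7 days of dTAG, with MERVL-int at 80321, and was listed at 0 after 15 days of dTAG, with MERVL-int at 147295, although dTAG mESCs of the sorted experiment, with MERVL-int at 78865, held 73.9. The sorted libraries were made with a low-input method and the unsorted ones with a poly(A) kit, and the part of this difference in the levels was not tested.

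The MT2 and MLT2 LTRs lay between these groups. All 5 MT2 LTRs were at least 1 higher in 2CLCs in both comparisons, where 61.9% of all families were. MT2B2 was at 480 and 3958 in DMSO (3.04) and at 643 and 4346 in dTAG (2.76), and MT2B, the most abundant of them, at 1692 and 7480 (2.14) and at 2078 and 12638 (2.60). MT2C_Mm differed by 1.99 and 2.55, MT2B1 by 1.70 and 1.78 and MT2A by 1.38 and 1.61, which for MT2A and MT2B1 was within 0.41 of the typical repeat family after scaling to it. Of the 10 MLT2 LTRs, 8 were at least 1 higher in both comparisons, where 61.9% of all families were. The exceptions were MLT2B5 (0.81 in DMSO) and MLT2C2 (0.91 in dTAG). After scaling to the median repeat family, MLT2B1, MLT2B3, MLT2C1, MLT2E and MLT2F stayed at least 1 higher in both, and the others did not. MLT2B1 went from 78.5 to 609 in DMSO (2.94) and from 114 to 1327 in dTAG (3.54). MLT2E, at 4.20 and 64.5 in DMSO (3.65), was low in every group and passed the filter only through groups in which it was higher. RMER10A, RMER10B and RMER15 differed by 1.39, 1.01 and 1.19 in DMSO and by 1.64, 1.13 and 1.07 in dTAG, and after scaling to the median repeat family RMER10B and RMER15 turned to lower in 2CLCs (−0.32 and −0.14 in DMSO, −0.24 and −0.30 in dTAG).

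**Figure D3:**
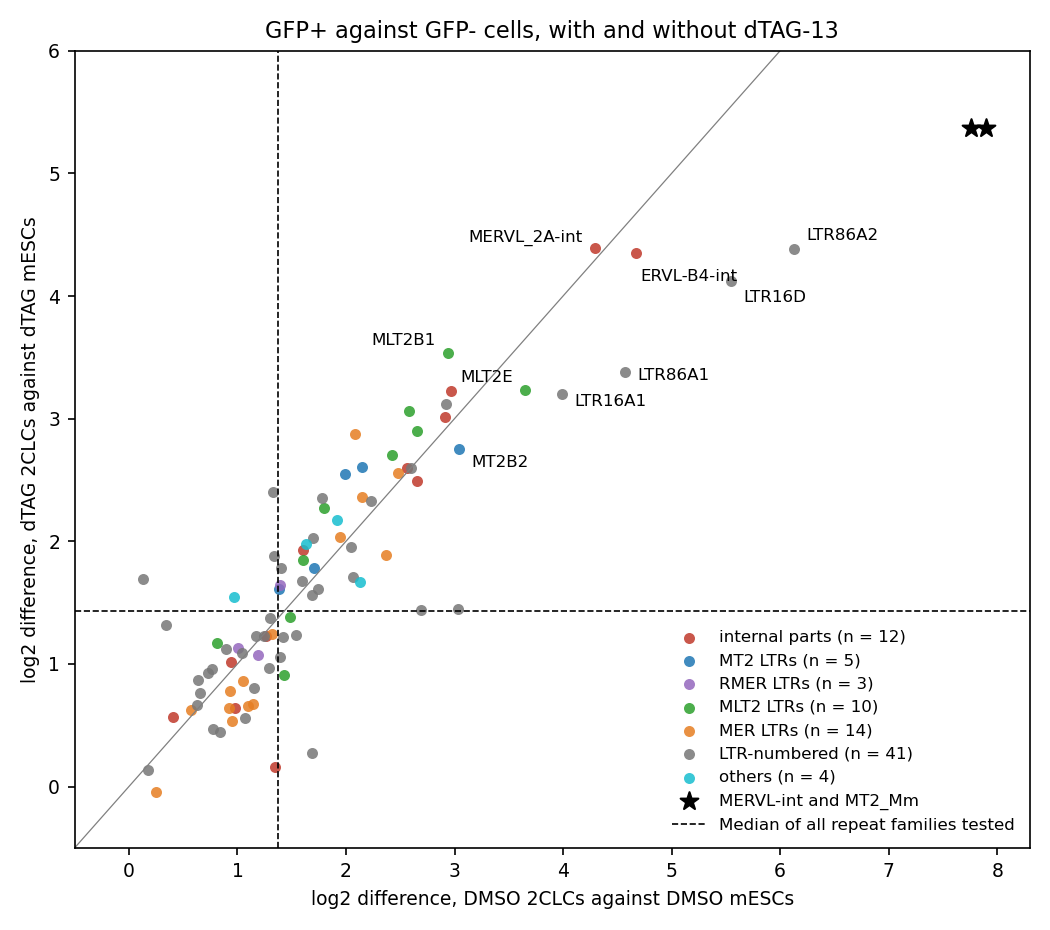
Log2 difference between 2CLCs and mESCs in DMSO (x axis) and in dTAG (y axis) for the 89 ERVL families tested, coloured by name group, with MERVL-int and MT2_Mm as stars, the median of all 911 repeat families as dashed lines and equality as a grey line. LTR86A2, LTR16D, LTR86A1 and LTR16A1 lie below the grey line with MERVL-int, whereas MERVL_2A-int (4.29 and 4.39) and MLT2B1 (2.94 and 3.54) lie above it.

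Within each sorted population dTAG was compared with DMSO. In mESCs, 10 of 89 members were at least 1 higher with dTAG, where 7.35% of all families were, and none was lower to that extent (0.11%). They were LTR86A2 (2.40), LTR16D (1.97), LTR86A1 (1.52), LTR82B (1.49), LTR16A1 (1.42), LTR101_Mam (1.35), LTR16E1 (1.29), ERVL-B4-int (1.26), MER70A (1.22) and LTR69 (1.09). Apart from ERVL-B4-int, which went from 84.9 to 204, these were at 13.2 or lower in DMSO mESCs. Of the 10, 6 were under 10 there and passed the filter only through groups in which they were higher, so the count is not read against the background, and with a pseudocount of 8 it was 5. MERVL_2A-int went from 900 to 1644 (0.87), and the MT2 LTRs differed by 0.15 to 0.42, around the 0.24 of the typical repeat family. In 2CLCs, 4 members were at least 1 higher with dTAG, where 5.93% of all families were (6.81% in either direction), namely LTR16E1 (100 and 283, 1.48), MER76 (64.0 and 163, 1.33), MLT2B1 (609 and 1327, 1.12) and MLT2C1 (256 and 533, 1.05). LTR84a was lower (21.1 and 9.59, −1.06), where 0.878% of all families were lower to that extent. MERVL_2A-int and ERVL-B4-int were at 0.97 and 0.93, beside 0.99 for MERVL-int.

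The dTAG difference in 2CLCs minus that in mESCs was then taken. It was at most −1 for 7 of 89 members, where 3.95% of all families were, and at least 1 for 2, where 1.32% were (5.27% in either direction). LTR86A2 (−1.74), LTR82B (−1.59), LTR16D (−1.42), LTR84a (−1.42), LTR101_Mam (−1.25), LTR86A1 (−1.19) and HERVL40-int (−1.18) formed the lower set, and LTR55 (1.56) and LTR87 (1.08) the higher. Of these 9, 7 were under 10 in DMSO mESCs and passed the filter only through other groups, and the count was 3 with a mean of at least 100 and 2 with a pseudocount of 8, so it is not read against the background. MERVL-int was at −2.53. MERVL_2A-int was at 0.10 and the MT2 LTRs were between −0.28 (MT2B2) and 0.56 (MT2C_Mm). Replicate values were not used here, so whether these differences between the populations exceed the spread between libraries was not tested.

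The levels of MERVL_2A-int and ERVL-B4-int were also set against that of MERVL-int. MERVL_2A-int equalled 11.3% and 10.7% of the MERVL-int level in the DMSO groups at 24 h and 7 days, 3.27% after 24 h of dTAG, 2.13% after 7 days and 1.62% after 15 days. In the sorted experiment it equalled 13.1% in DMSO mESCs, 2.08% in dTAG mESCs, 1.07% in DMSO 2CLCs and 1.06% in dTAG 2CLCs. ERVL-B4-int equalled 1.72% of MERVL-int in the 24 h DMSO group and 0.221% after 7 days of dTAG, and in 2CLCs it was at 0.133% and 0.128%. In each pair of DMSO and dTAG groups the share was lower in the dTAG group, with the smallest gap between the 2CLC groups. How far reads from MERVL-int copies enter the counts of these related internal parts was not tested.

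The name groups differed among themselves. At 7 days of dTAG the median of the 7 internal parts was 0.57 and that of the 5 MT2 LTRs 0.22, beside −0.16 for 8 MLT2 LTRs and −0.06 for 7 MER LTRs. At 15 days the medians were 1.05 for 5 internal parts, 0.80 for the MT2 LTRs, 0.62 for the MLT2 LTRs and 0.25 for 3 MER LTRs. The related ERVL-MaLR families, nonautonomous mammalian LTR elements, had a median of 0.39 over 73 families at 15 days, and ERVK and ERV1 had 0.28 over 216 and 0.21 over 62. The shares of these at least 1 higher were 5 of 73, 27 of 216 and 5 of 62, beside the 8 of 34 ERVL members. In DMSO 2CLCs the MLT2 LTRs (2.11), internal parts (2.08) and MT2 LTRs (1.99) had the highest medians, and MER LTRs (1.12) and RMER LTRs (1.19) the lowest, around 1.38 for ERVL-MaLR, 1.55 for ERVK and 1.45 for ERV1. These are descriptions of lists of unequal size, without a test.

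**Figure D4:**
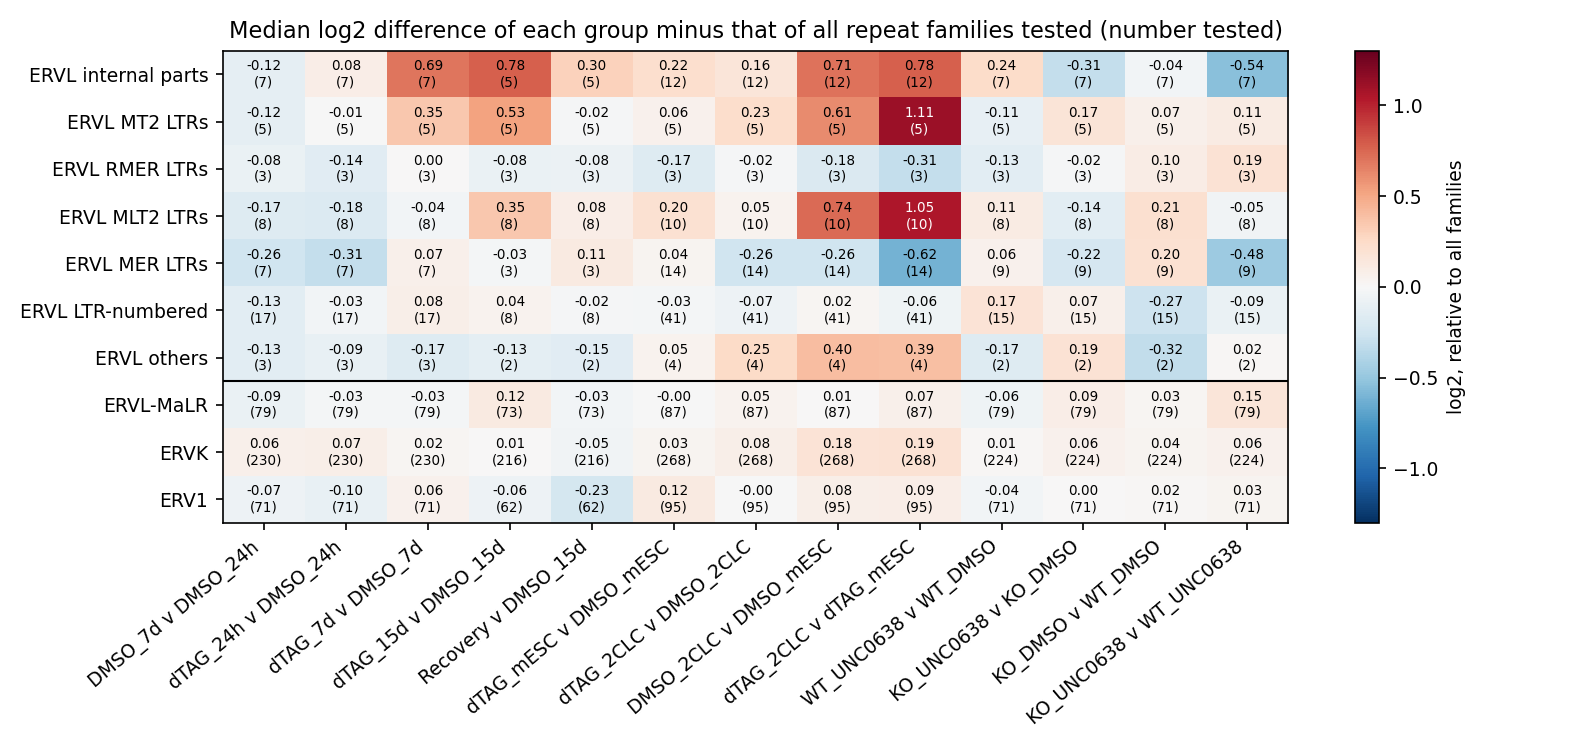
Median log2 difference of each name group of ERVL families, and of ERVL-MaLR, ERVK and ERV1, minus the median of all repeat families tested, in 13 comparisons, with the number of families tested in brackets. Internal parts and MT2 LTRs stand above the other families at 7 and 15 days of dTAG (0.69 and 0.35, then 0.78 and 0.53). In 2CLCs against mESCs, internal parts, MT2 LTRs and MLT2 LTRs do so. They stand at 0.71, 0.61 and 0.74 in DMSO and at 0.78, 1.11 and 1.05 in dTAG. The RMER LTRs stay within 0.31 of the typical family.

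The Dppa4 experiment had values per library, so differences could be tested. The libraries held 8399885 to 12710949 gene reads and 5251 to 10953 reads on the 111 families. Using limma across 689 repeat families with Benjamini-Hochberg adjustment, no member of the 49 tested passed an adjusted p under 0.05 with a log2 difference of at least 1 in any comparison. UNC0638 against DMSO gave 0 in wild-type cells (0% of all families called) and 0 in KO cells (0%), KO against wild type gave 0 in DMSO (0.726%) and 0 in UNC0638 (1.31%), and the difference between the UNC0638 effects gave 0 (0%). At an unadjusted p under 0.05 there were 5, 1, 2, 9 and 4 members in this order, or 10.2%, 2.04%, 4.08%, 18.4% and 8.16% of the members, beside 11.5%, 4.93%, 6.53%, 13.1% and 4.79% of all families. edgeR on the recovered reads called 0 in each, with 5, 0, 1, 6 and 4 at an unadjusted p under 0.05, and DESeq2 called 0, 0, 0, 1 and 0, with 5, 0, 2, 10 and 4.

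In wild-type cells MERVL_2A-int was at 619, 582 and 611 in DMSO and at 955, 748 and 1334 in UNC0638. All 3 UNC0638 libraries were above the 3 DMSO libraries. The means were 604 ± 19.6 and 1012 ± 297 (SD, n = 3), with a log2 difference of 0.70 (95% interval 0.07 to 1.34, limma adjusted p = 0.372), which was not past the threshold. In Dppa4 KO cells it was at 608, 459 and 685 in DMSO and at 614, 666 and 271 in UNC0638, and the groups overlapped (log2 difference −0.26, 95% interval −0.90 to 0.38, limma adjusted p = 0.986). Without UNC0638 the KO and wild-type libraries overlapped as well, with a difference of −0.07 (95% interval −0.71 to 0.57, limma adjusted p = 0.999). In UNC0638 the 3 KO libraries lay below the 3 wild-type libraries, with a difference of −1.03 (95% interval −1.67 to −0.40, limma adjusted p = 0.108). The third KO library with UNC0638 (271) had the most gene reads (12710949) and the fewest repeat reads (313737) of the 12 libraries. It was also the lowest of the 12 for ERVL-B4-int and MT2B. The UNC0638 effect in KO minus that in wild-type cells was −0.97 (95% interval −1.87 to −0.06, limma adjusted p = 0.764), so a difference between the genotypes in the effect was not past the threshold. MERVL-int, by the same test, was −2.54 in KO against wild type in DMSO (adjusted p = 0.0244) and −4.53 in UNC0638 (adjusted p = 4.99e-05).

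ERVL-B4-int was at 39.6, 43.1 and 68.2 in wild-type DMSO libraries, at 90.7, 54.2 and 111 with UNC0638, at 45.0, 42.8 and 56.9 in KO DMSO libraries and at 48.8, 52.7 and 23.6 in KO libraries with UNC0638. The wild-type UNC0638 and DMSO libraries overlapped (0.73, 95% interval −0.10 to 1.56, limma adjusted p = 0.427), and the KO libraries with UNC0638 lay below all wild-type libraries with UNC0638 (−1.04, 95% interval −1.87 to −0.20, limma adjusted p = 0.252). In DMSO, KO and wild-type libraries differed by −0.03 (95% interval −0.86 to 0.80, limma adjusted p = 0.999). MERVL_2A-int equalled 9.46% of MERVL-int in wild-type DMSO cells and 67.3% in KO DMSO cells. The 12 genes of 2CLCs summed to 93.1 to 1344 in the wild-type DMSO libraries and to 775 to 5888 in those with UNC0638. They summed to 0 in 5 KO libraries and 3.49 in the other, and the part of this difference in the ERVL values was not tested.

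MLT2C2 was at 9.31, 3.69 and 16.6 in wild-type DMSO libraries, at 30.8, 23.4 and 47.1 with UNC0638, at 9.78, 10.2 and 26.7 in KO DMSO libraries and at 5.52, 5.38 and 7.86 in KO libraries with UNC0638. The wild-type UNC0638 libraries lay above all libraries of wild-type DMSO and KO UNC0638. The difference of KO from wild type in UNC0638 was −2.22 (95% interval −3.64 to −0.81, limma adjusted p = 0.121), and it was the single call of DESeq2 (−2.43, adjusted p = 0.0172). At these levels 1 read is worth 0.798 to 1.23 normalized counts, so the KO values with UNC0638 rest on under 10 reads per library.

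The MT2 LTRs differed by less than 1 in each comparison of the Dppa4 experiment. In wild-type cells all UNC0638 libraries of MT2A, MT2B and MT2C_Mm lay above all DMSO libraries, where 28.7% of all families did so. The libraries of MT2B1 and MT2B2 overlapped. MT2B was at 828, 897 and 757 in wild-type DMSO libraries and at 1064, 899 and 1052 with UNC0638 (0.28, 95% interval −0.25 to 0.81, limma adjusted p = 0.562). MT2C_Mm had the largest difference of them in wild-type cells (179 ± 9.35 in DMSO and 270.2 ± 40.5 in UNC0638, SD, n = 3). It was 0.58 (95% interval 0.02 to 1.14, limma adjusted p = 0.41). In KO against wild type with UNC0638 the 5 MT2 LTRs lay between −0.26 (MT2B) and 0.06 (MT2A), with intervals whose lower bounds were between −0.85 and −0.43, while MT2_Mm was at −2.85 (95% interval −3.86 to −1.83, limma adjusted p = 0.00181). In wild-type cells 10 of 49 members had all UNC0638 libraries above all DMSO libraries, where 28.7% of all families did, and in UNC0638 11 had all KO libraries below all wild-type libraries, where 14.8% of all families did. The medians over the members were 0.49 and −0.28 in these comparisons, beside 0.43 and −0.32 over all families tested. The 2 comparisons share the wild-type UNC0638 libraries.

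**Figure D5:**
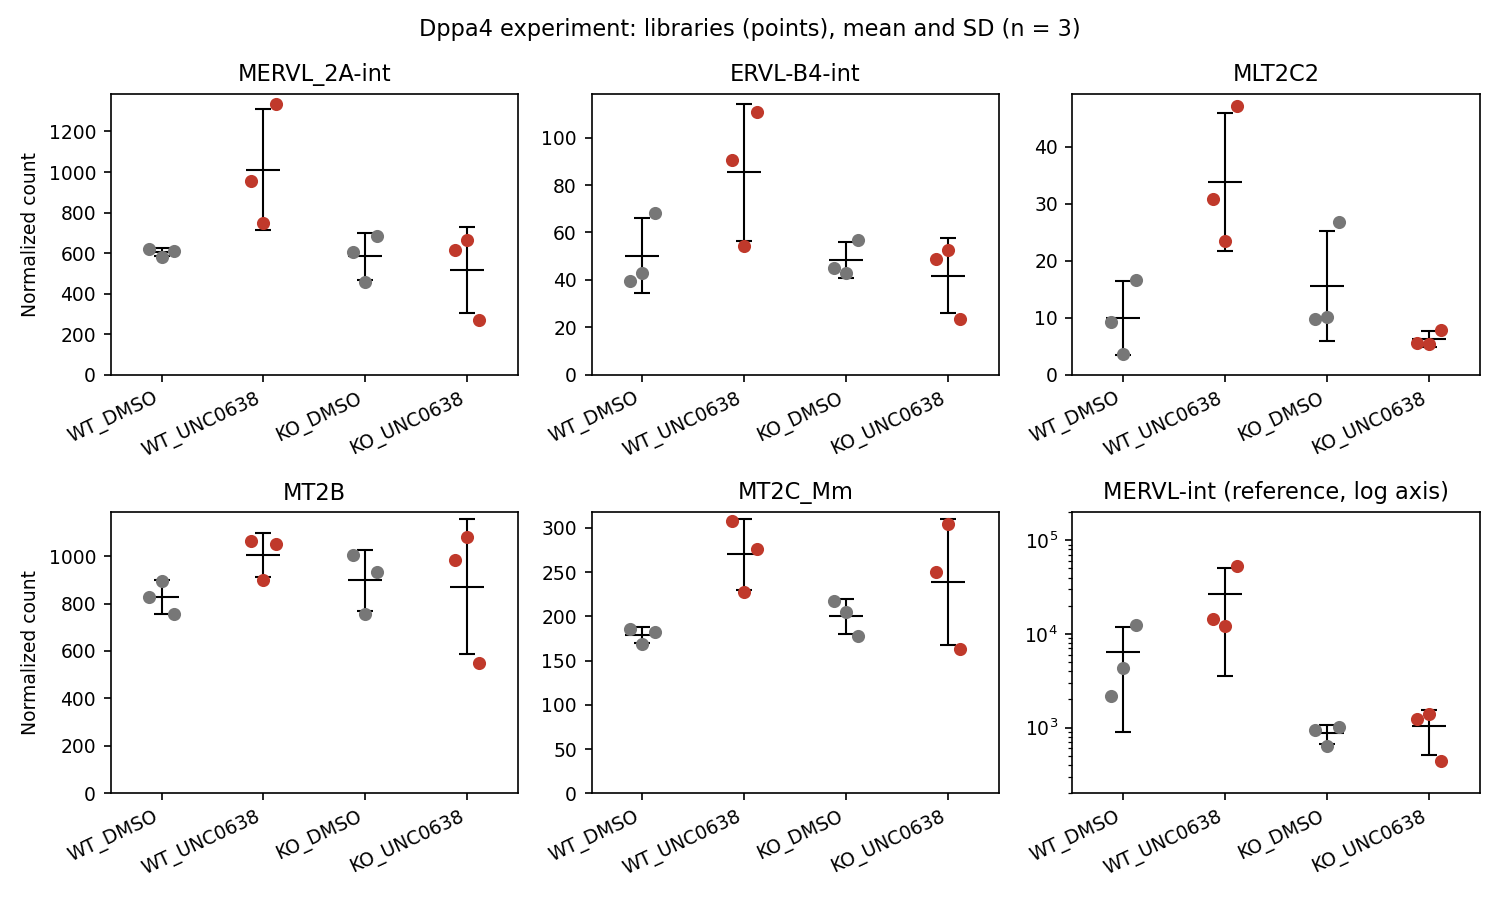
Normalized counts of 5 ERVL families and of MERVL-int (log axis) in the 12 libraries of the Dppa4 experiment, with points for libraries, horizontal bars for means and error bars for SD (n = 3). The wild-type UNC0638 libraries of MERVL_2A-int (748 to 1334) lie above the other groups, and MERVL-int is lower in every KO library than in every wild-type library. For MT2B the lowest wild-type UNC0638 library (899) lies just above the highest wild-type DMSO library (897). The KO groups of MT2B overlap both wild-type groups.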

How the data were processed

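RNA-seq of 45 mESC libraries was analysed from the deposited repeat and gene tables. Per the labels and the study's methods, the authors trimmed reads with Trim Galore 0.6.7, aligned them to mm10 with STAR 2.7.10, keeping multi-mapping reads with 1 random position, and counted genes and repeat families with TEcounts. The deposited values are DESeq2-normalized counts, treated here as a signal: group means, without replicate values, for the time course, washout and sorted experiments, and values per library for the Dppa4 experiment. Files of the authors' own comparisons (fold changes and p-values) were not used.

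The limma test had been planned for all 4 experiments, but group means leave no replicates to test, so group means were compared as log2(value + 1) without a test. In the Dppa4 experiment, limma 3.58.1 with a trend was fitted to log2(value + 1) of 689 families with a mean of at least 10. All nonzero values gave whole reads (100% within 0.01 of a read), and edgeR 4.0.16 and DESeq2 1.42.0 were run on those reads as alternatives, together with other pseudocounts (0.5 and 8), filters, scalings, thresholds, a replicate block and fits leaving out 1 library. The limma step was tested on simulated data. Per the labels, 3 clones of each genotype were used in the Dppa4 experiment, without saying whether a replicate number marks a clone. Deviations of same-numbered DMSO and UNC0638 libraries from their group means were therefore correlated. In wild-type cells the correlations were 0.29, 0.11 and 0.49 over genes and 0.13, −0.01 and 0.28 over repeats. In KO cells they were 0.20, −0.098 and 0.0072 over genes and 0.094, −0.048 and −0.12 over repeats. Differently numbered libraries were not compared in this way, so these values do not settle whether the numbers pair the libraries. Named families were all MT2 and MERVL-named members, up to 12 with the largest difference past the threshold in each comparison, the 5 most abundant of each experiment, and the 3 highest and 3 lowest differences of its first comparison among those with a mean of at least 100. LTR33, HERVL74-int, ERVL-int, MLT2B3, MLT2B5, HERVL32-int and MER76-int were named after their values were seen. The members, lists and tests were chosen with earlier results of these data known. No repeat sequence was analysed here.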

Additional observations from a re-analysis of the deposited data

How the results depend on the processing

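Without the filter on low values, counts of members past the threshold went from 1 to 11 (dTAG against DMSO at 24 h), 3 to 8 (7 days), 0 to 4 (between the DMSO groups), 3 to 18 (change of the dTAG difference from 24 h to 7 days), 8 to 17 (15 days), 2 to 10 (Recovery against DMSO), 4 to 16 (Recovery against dTAG) and 5 to 8 (dTAG against DMSO in 2CLCs). With a mean of at least 100 they were 0 at 24 h, 4 at 15 days, 0 for Recovery against DMSO, 31 and 32 for 2CLCs against mESCs in DMSO and dTAG, 6 and 3 for dTAG in mESCs and 2CLCs, and 3 for the difference between those. With a pseudocount of 8 they were 0 at 24 h, 1 for the change to 7 days, 0 for Recovery against DMSO, 5 for dTAG in mESCs and 2 for the difference between populations, and with 0.5 the comparison of the DMSO groups gave 1. The share over all families was not taken with these filters and pseudocounts. These counts therefore show only how the number depends on the setting, and are not a result about the members. Scaling to the median repeat family gave 0 at 24 h (1.8% of all families higher and 0.416% lower), 4 at 15 days (4.69% higher and 0.782% lower), 0 for Recovery against DMSO (0.313% higher), 23 and 26 for 2CLCs in DMSO and dTAG, and 3 for dTAG in 2CLCs (2.11% higher and 1.78% lower). Among the named members with a difference of at least 1 in size before or after it, it turned the 2CLC difference in DMSO to −0.061 for ERVL-E-int, −1.08 for LTR55, −0.14 for LTR69, −0.32 for RMER10B and −0.14 for RMER15, and in dTAG to −0.14 for ERVL-E-int, −1.10 for HERVL40-int, −0.14 for LTR16C, −0.23 for LTR40c, −0.24 for RMER10B, −0.35 for RMER15-int and −0.30 for RMER15. DESeq2 called 1 member, MLT2C2, in KO against wild type with UNC0638, where limma called 0. The other 163 values for counts of members stayed within 1.5 times.

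In the Dppa4 experiment, with a replicate block 0 members were called in each comparison, as without it, and leaving out any 1 library gave 0 to 0. No such fit was possible for the group means of the other 3 experiments.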

Other observations

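LTR50, at 191 and 238 in the DMSO groups and 245 and 260.3 in the dTAG groups of the time course, was the most abundant LTR-numbered family there, differed by 0.13 at 7 days, and it was lower with dTAG at 15 days (382 and 336, −0.19). In the sorted cells it went from 76.7 to 131 in DMSO (0.77), below the typical repeat family. RLTR28 was at 250.5 and 204 at 7 days (−0.29) and at 142 and 137 at 15 days (−0.05). RMER15-int, the internal part that goes with RMER15 by name, differed by 0.04 at 7 days and −0.06 at 15 days of dTAG, and in 2CLCs by 0.94 in DMSO and 1.02 in dTAG. ERVL-E-int was lower with dTAG at 24 h (41.8 and 29.0, −0.51) and 7 days (35.6 and 25.4, −0.47) and higher at 15 days (11.6 and 25.1, 1.05). MER21B and MER21C, the most abundant MER LTRs, differed by 0.57 and 0.93 in DMSO 2CLCs, under the 1.38 of the typical repeat family.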
